A study of Mus musculus with 20 samples.

Results

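The genes described are the regulators and enzymes through which the liver makes fatty acids: Srebf1, Mlxipl, Acly, Acaca, Acacb, Fasn, Scd1, Elovl6, Thrsp and Pnpla3. They were chosen by name, as the gene of the sterol regulatory element-binding protein SREBP1, the gene of the carbohydrate response element-binding protein ChREBP and known targets of both, and are 10 of the 46078 genes in the count table. All 10 were found in it and all 10 passed the filter on low counts. Poly(A) RNA was sequenced from 20 livers of mice with or without cystathionine γ-lyase (CSE, gene Cth), the enzyme that releases cysteine at the end of the transsulfuration pathway. Mice without CSE cannot make cysteine from methionine and depend on the diet for it.

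The livers fell into 6 groups. The 9 Cse+/- mice had been fed a complete amino acid diet (control, 2 mice), one lacking cysteine (no-Cys, 4 mice) or one lacking tryptophan (no-Trp, 3 mice). Of the 11 Cse-/- mice, 4 were fed the no-Cys diet, 3 the no-Trp diet and 4 the no-Trp diet together with L-buthionine sulfoximine (BSO), an inhibitor of glutathione synthesis. There were no Cse-/- livers on the control diet. The submitters labelled the mice with CSE WT, whereas the study's list of mice gives them as heterozygous, and they are called Cse+/- here. All were male and at least 9 weeks old, the deletion was present in every tissue on a mixed 129/C57BL/6 background, food was restricted in all groups, and livers were taken 2 days after the change of diet. Each library was 1 mouse, so the spread is that between animals. Libraries held 11785740 to 57986121 counts. Levels are given in CPM, a gene's counts relative to the total of its library, scaled with TMM factors, and tests are edgeR quasi-likelihood tests of 1 fit over all 20 livers, with p adjusted over 14759 genes by the Benjamini-Hochberg method and called at 0.05.

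Cth was at 88.4 CPM or more in every Cse+/- liver and at 14.4 CPM or less in every Cse-/- liver, so no library went against its genotype label. The hepatocyte markers (albumin, Apoa1, Ttr, Serpina1a and Tat) summed to 36552 to 61676 CPM in the Cse-/- no-Cys livers, 81927 to 104442 CPM in the Cse+/- no-Cys livers and 56131 to 106853 CPM elsewhere. Mouse av08 had the highest of the sums among the Cse-/- no-Cys livers, and the other 3 reached at most 40602 CPM. Adipocyte markers stood out in 2 libraries. Adipoq, the gene of adiponectin, was at 1.08 CPM in av14 (Cse-/- no-Trp) and 2.91 CPM in av17 (Cse+/- no-Trp), against at most 0.156 CPM in the other 18, and Cfd was at 11.1 and 26.3 CPM against at most 0.708 CPM. Lep, the gene of leptin, was at 0 in all 20 livers. Fat cells make the same lipogenic enzymes, so results that rest on av14 or av17 are also given without them.

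In the fed liver, insulin raises SREBP1c and releases it from the endoplasmic reticulum, while sugar phosphates activate ChREBP. Together these factors switch on the genes that turn citrate into acetyl-CoA (ATP citrate lyase, Acly), acetyl-CoA into malonyl-CoA (the acetyl-CoA carboxylases, Acaca and Acacb), malonyl-CoA into palmitate (fatty acid synthase, Fasn), and palmitate into longer and unsaturated acids (Elovl6 and stearoyl-CoA desaturase 1, Scd1). Fasting and shortage of amino acids are known to lower the programme.

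The regulatory DNA before the start sites is shown first, because SREBP1 is known to act together with the factors NF-Y and Sp1 close to the start sites of its targets. RefSeq promoters on GRCm38.p6, 300 bases each, matched 9 of the 10 genes (all but Scd1) with 12 start sites. Both strands were searched for CCAAT, the NF-Y box, GGGCGG, the Sp1 box, TCACNCCAC, a strict form of the sterol regulatory element, and CACGTG, the E-box. An LXR receptor element and a strict and a relaxed ChREBP element were searched too. They matched none of the 12 promoters (0.0152%, 0% and 0.767% of all mouse promoters). The 250 bases before the start are printed for 4 of the genes called lower in the Cse-/- no-Cys livers (Srebf1, Acly, Fasn and Pnpla3). They are also printed for Mlxipl, which missed the threshold. Of the start sites of Srebf1 and Mlxipl, 1 each is shown. No GENCODE exon overlaps the stretches printed. Each runs 5′ to 3′ on the gene's strand, and capitals mark matches to any of these motifs on either strand.
Srebf1, chr11:60210472-60210721, minus strand: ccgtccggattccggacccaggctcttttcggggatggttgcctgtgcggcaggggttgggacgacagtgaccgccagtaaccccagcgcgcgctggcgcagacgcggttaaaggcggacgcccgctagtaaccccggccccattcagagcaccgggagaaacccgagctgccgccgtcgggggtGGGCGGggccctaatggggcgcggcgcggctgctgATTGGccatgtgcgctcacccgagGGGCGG
Acly, chr11:100528001-100528250, minus strand: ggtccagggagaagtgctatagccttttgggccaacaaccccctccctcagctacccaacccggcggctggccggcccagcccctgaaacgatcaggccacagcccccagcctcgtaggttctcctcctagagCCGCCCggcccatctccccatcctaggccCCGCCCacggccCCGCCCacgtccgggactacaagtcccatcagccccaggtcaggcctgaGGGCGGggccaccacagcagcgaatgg
Fasn, chr11:120824548-120824797, minus strand: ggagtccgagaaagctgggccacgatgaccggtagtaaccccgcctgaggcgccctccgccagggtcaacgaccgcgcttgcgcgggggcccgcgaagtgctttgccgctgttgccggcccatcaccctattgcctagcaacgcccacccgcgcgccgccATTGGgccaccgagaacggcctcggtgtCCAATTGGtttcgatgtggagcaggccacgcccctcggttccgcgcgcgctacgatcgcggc
Pnpla3, chr15:84167566-84167815, plus strand: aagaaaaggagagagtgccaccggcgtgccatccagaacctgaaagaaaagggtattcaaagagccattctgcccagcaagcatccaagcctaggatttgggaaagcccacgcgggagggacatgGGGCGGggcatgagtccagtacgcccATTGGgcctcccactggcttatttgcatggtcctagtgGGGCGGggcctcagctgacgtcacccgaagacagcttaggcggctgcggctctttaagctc
Mlxipl, chr5:135089640-135089889, plus strand: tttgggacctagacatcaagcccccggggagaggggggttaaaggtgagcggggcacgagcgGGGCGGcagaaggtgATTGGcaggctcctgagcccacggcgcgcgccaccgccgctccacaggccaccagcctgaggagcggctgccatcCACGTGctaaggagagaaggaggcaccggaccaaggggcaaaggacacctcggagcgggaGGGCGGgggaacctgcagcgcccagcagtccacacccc

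CCAAT occurred on either strand in 8 of the 12 promoters, from 7 of the 9 genes, compared with 37.4% of the 32851 mouse promoters of the same length. In Fasn it lay 90, 62 and 59 bases before the start, with the latter pair overlapping, and in Thrsp it lay 79 and 52 bases before the start. Pnpla3 held 1, at 99 bases. GGGCGG occurred in 5 promoters of 4 genes (35.7% of all promoters), among them Acly with 4 matches before the start. The strict sterol element was found once, as TCACACCAC 136 bases before the other Mlxipl start site (1.24% of all promoters), and CACGTG once, 98 bases before the Mlxipl start shown (7.15%). The sterol element and the E-box thus lay at different start sites of Mlxipl, which gene counts cannot separate. Mlxipl was not called in the Cse genotype comparison on the no-Cys diet, and the match of letters is only a description of sequence.

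On the cysteine-free diet, 6 of the 10 genes were called lower in Cse-/- than in Cse+/- livers and none was called higher. Scd1 was lowest, 20.7-fold, followed by Pnpla3, Thrsp and Srebf1 at 3.23-fold to 4.22-fold, Fasn at 2.06-fold and Acly at 1.47-fold. Of all 14759 genes, 12.2% were called lower in this comparison. In 6 of the 10 genes, and in 11.2% of all genes, every Cse-/- liver was below every Cse+/- liver. The median log2 difference over the 10 genes was -0.85, compared with -0.01 over all genes. Elovl6, Mlxipl, Acaca and Acacb were not called.

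**Figure D1:**
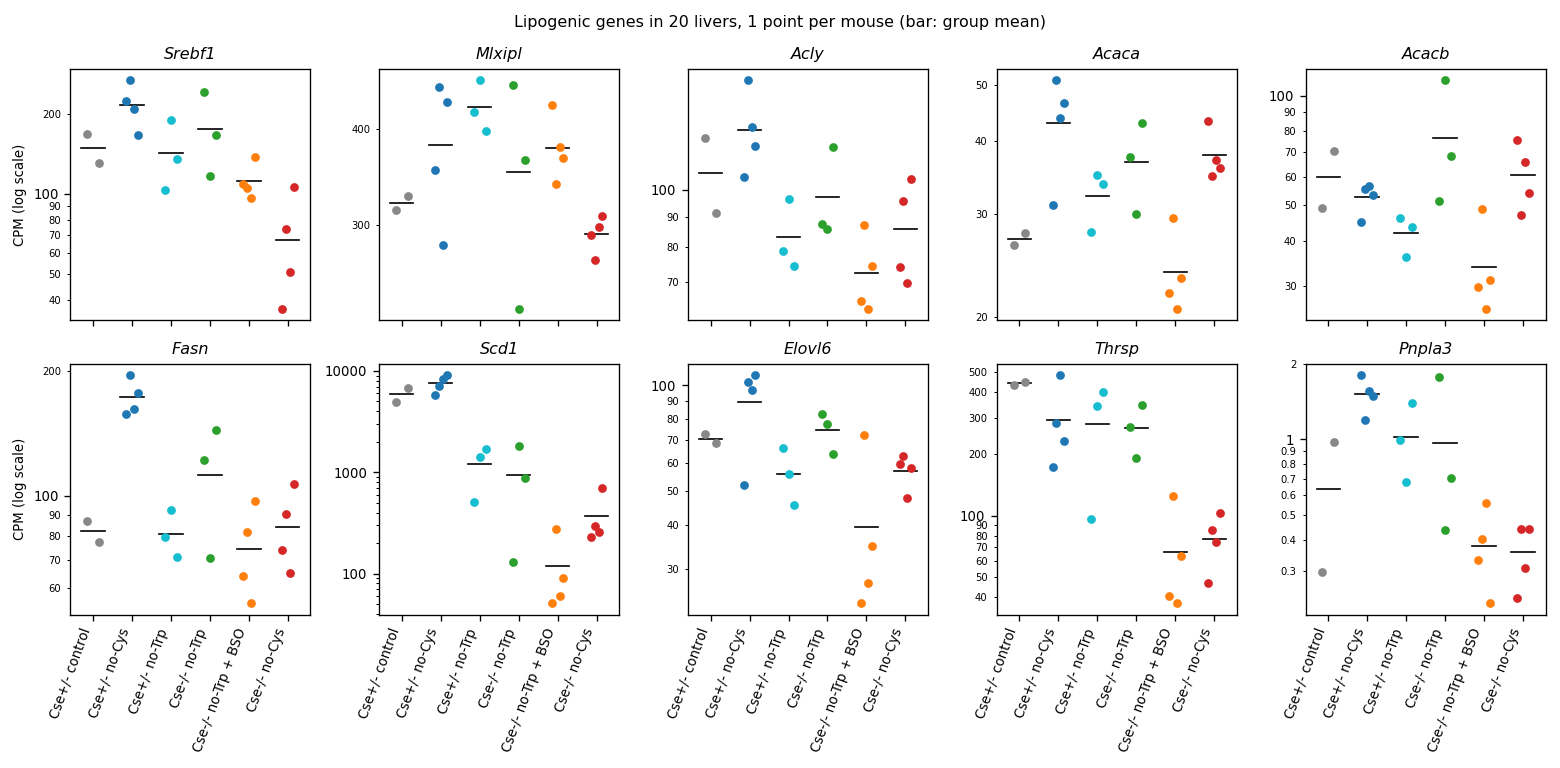
Level of each lipogenic gene in CPM (log axis, a separate scale for each gene) in the 20 livers, 1 point per mouse, grouped by genotype and diet, with a bar at the group mean. The Scd1 points of the 4 Cse-/- no-Cys livers lie between 228 and 694 CPM and those of the 4 Cse+/- no-Cys livers between 5822 and 9145 CPM, whereas the Acaca points of these groups overlap.

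Among the regulators, Srebf1 (chr11:60199089-60222581, minus strand) encodes SREBP1, whose isoforms gene counts cannot separate. It was at 224, 267, 208 and 166 CPM in the Cse+/- no-Cys livers and at 37.1, 73.7, 51.0 and 106 CPM in the Cse-/- no-Cys livers. The groups did not overlap, and the log2 difference was -1.69 (SE 0.27, edgeR adjusted p = 2.25e-04). Mlxipl (chr5:135089890-135138382, plus strand), which encodes ChREBP, was at 354, 453, 283 and 433 CPM in Cse+/- and at 291, 270, 298 and 308 CPM in Cse-/- livers. These values overlapped, because av03 was the lowest of its group. The log2 difference for Mlxipl was -0.38 (SE 0.16, adjusted p = 0.0879), with a 95% interval from -0.72 to -0.05 before adjustment. Without av03 it was -0.50 and was called (adjusted p = 0.0292).

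Acly (chr11:100476353-100528000, minus strand) supplies cytosolic acetyl-CoA. It was at 105, 153, 128 and 118 CPM in Cse+/- and at 74.2, 95.8, 69.8 and 104 CPM in Cse-/- no-Cys livers. The groups met at their edges, av01 and av08, and the log2 difference was -0.55 (SE 0.16, adjusted p = 0.0149). The call for Acly was lost when any of 3 mice (av02, av05 or av07) was left out, with an adjusted p up to 0.0673.

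Neither carboxylase was called. Acaca (chr11:84129672-84401651, plus strand), the cytosolic form that feeds synthesis, was at 31.1 to 50.9 CPM in Cse+/- and 34.8 to 43.4 CPM in Cse-/- no-Cys livers, with a log2 difference of -0.19 (SE 0.14, adjusted p = 0.364, 95% interval -0.49 to 0.11). Acacb (chr5:114146535-114250761, plus strand), the mitochondrial form whose product restrains fatty acid entry, was at 44.9 to 56.5 and 47.1 to 75.8 CPM, with a log2 difference of 0.21 (SE 0.21, adjusted p = 0.516). The intervals leave room for modest differences in either direction. Of Acaca's 61-base words, 28.7% also occur in other genes, chiefly Gm5182, so its counts depend on how shared reads were treated.

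Fasn (chr11:120805846-120824547, minus strand), the synthase itself, was at 157, 196, 162 and 177 CPM in Cse+/- and at 74.1, 90.2, 65.2 and 107 CPM in Cse-/- no-Cys livers. Every Cse-/- liver was below every Cse+/- liver, and the log2 difference was -1.04 (SE 0.20, adjusted p = 8.53e-04). Against the Cse+/- control livers, at 87.0 and 77.4 CPM, Fasn in Cse-/- no-Cys livers differed by only 0.03 on the log2 scale (adjusted p = 0.946). Fasn was higher in Cse+/- no-Cys livers than on the control diet (log2 difference 1.07, SE 0.25, adjusted p = 0.0271), a call that was lost without av02, av21 or av22 (adjusted p up to 0.373).

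Scd1 (chr19:44394455-44407879, minus strand), which makes oleate from stearate, carried the greatest change. It was at 5822, 7191, 8395 and 9145 CPM in the Cse+/- no-Cys livers. In the Cse-/- no-Cys livers it was at 228, 295, 258 and 694 CPM. The highest Cse-/- value, from av08, was still far below the lowest Cse+/- value, and the log2 difference was -4.37 (SE 0.67, adjusted p = 1.45e-04). Without av08 the difference was -4.87. Per kilobase of exon, Scd1 was the most abundant of the 10 genes in Cse+/- no-Cys livers, at 1561 ± 297 CPM per kb (SD, n = 4), compared with 134 ± 62.2 for Thrsp and 68.7 ± 14.1 for Mlxipl. Its counts made up 82.2 to 87.3% of all counts on the 10 genes in these livers and 24.5 to 44.2% in the Cse-/- no-Cys livers, while the 10 genes together took 0.656 to 0.983% and 0.102 to 0.159% of all counts. Of Scd1's 61-base words, 3.62% also occur in other genes, its close relatives Scd2, Scd3 and Scd4 among them, and Scd2 itself differed by -0.04 (adjusted p = 0.885).

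Elovl6 (chr3:129532355-129638495, plus strand), which lengthens palmitate, was at 52.2, 102, 96.7 and 107 CPM in Cse+/- and at 59.9, 62.8, 47.8 and 58.1 CPM in Cse-/- no-Cys livers. Only av01 among the Cse+/- livers lay within the range of the Cse-/- livers. The log2 difference was -0.65 (SE 0.26, adjusted p = 0.0789), and without av01 it was -0.84 (adjusted p = 0.0228).

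Thrsp (chr7:97412938-97417730, minus strand) encodes Spot 14, a small protein that promotes lipogenesis. It was at 173, 283, 486 and 231 CPM in Cse+/- and at 46.8, 85.3, 74.1 and 103 CPM in Cse-/- no-Cys livers. The groups were separate, although Thrsp varied widely among Cse+/- mice, and the log2 difference was -1.93 (SE 0.42, adjusted p = 0.00271). Pnpla3 (chr15:84167837-84187236, plus strand), which encodes a lipid droplet protein, was scarce, with 17 to 21 counts in each Cse+/- and 4 to 6 counts in each Cse-/- no-Cys library. Pnpla3 was at 1.80, 1.20, 1.56 and 1.49 CPM in Cse+/- and at 0.236, 0.440, 0.310 and 0.443 CPM in Cse-/- livers, which do not overlap. The log2 difference was -2.08 (SE 0.46, adjusted p = 0.00294), and it rests on these few counts.

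The called differences were present in a tissue whose other transcripts also moved. In the same comparison 4 of 5 hepatocyte markers and 5 of 5 red cell markers were lower in Cse-/- no-Cys livers, and their part in the lipogenic results was not tested. Of the other markers, 2 of 4 for stellate cells and 1 of 4 for bile duct were lower, 1 of 6 tested for adipocytes was higher (Pparg), none of 5 for macrophages or of 3 for endothelium was called, and none for pancreas could be tested. Albumin mRNA differed by -1.26 on the log2 scale, less than Scd1, Pnpla3, Thrsp or Srebf1 and more than Fasn or Acly. Of the adipocyte markers, Adipoq was at 0 in all 4 Cse-/- no-Cys livers and at most 0.156 CPM in the Cse+/- no-Cys livers. In bulk tissue, fewer hepatocytes and less RNA per hepatocyte cannot be told apart.

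Whether this pattern was particular to the lack of cysteine was addressed with the no-Trp diet. There, none of the 10 genes differed between Cse-/- and Cse+/- livers by edgeR, where 2.64% of all genes did in either direction. At an unadjusted p under 0.05 there was 1, Acacb (log2 difference 0.87, SE 0.25, adjusted p = 0.0637). Acacb was at 51.4, 110 and 68.2 CPM in Cse-/- and 46.3, 36.0 and 43.5 CPM in Cse+/- livers. These values did not overlap, which held for 19.6% of all genes in either direction. DESeq2 called 1, also Acacb, among 727 genes in all, and so did edgeR without av14 and av17 (log2 difference 1.17, adjusted p = 0.0324), where 3.92% of all genes were called. Without av15, which had the highest Acacb value, the difference was 0.51 (adjusted p = 0.358). Scd1 was at 132, 1810 and 872 CPM in Cse-/- no-Trp livers and at 508, 1404 and 1680 CPM in Cse+/- no-Trp livers, which overlap fully. The Scd1 difference of -0.35 (SE 0.68, adjusted p = 0.826) turned to 0.15 without av14 and was -0.20 without av14 and av17.

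**Figure D2:**
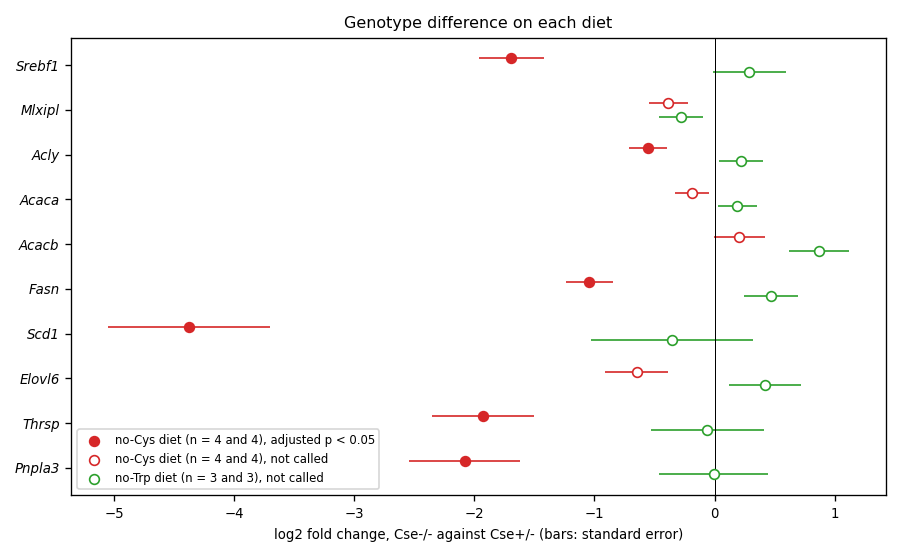
Log2 fold change of each lipogenic gene in Cse-/- against Cse+/- livers, with its standard error, on the no-Cys diet (red, n = 4 and 4) and on the no-Trp diet (green, n = 3 and 3), with filled points for adjusted p under 0.05. On the no-Cys diet 6 genes are filled, from Scd1 at -4.37 to Acly at -0.55, and on the no-Trp diet none is.

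The genotype difference itself differed between the diets for 3 genes, all more negative on the no-Cys diet, where 2.69% of all genes were called in that direction. The difference of differences was -4.02 for Scd1 (SE 0.93, adjusted p = 0.0186), -1.98 for Srebf1 (SE 0.41, adjusted p = 0.00966) and -1.51 for Fasn (SE 0.30, adjusted p = 0.00742). Pnpla3 (-2.07, adjusted p = 0.0694), Thrsp (-1.87, adjusted p = 0.0966), Acly (-0.77, adjusted p = 0.0693) and Elovl6 (-1.07, adjusted p = 0.138) did not pass. Acacb (-0.66), Acaca (-0.38) and Mlxipl (-0.10) were nearest to 0. The Scd1 call was lost without av15 (-3.11, adjusted p = 0.0566) and without av17 alone (-3.65, adjusted p = 0.0525). Without av14 and av17 together, Scd1 (-4.17, adjusted p = 0.0148) and Fasn (-1.44, adjusted p = 0.0459) were called and Srebf1 was not (-1.50, adjusted p = 0.0736), and Pnpla3 was at -1.31 (adjusted p = 0.299). Of the markers, 2 of 5 for hepatocytes and 1 of 5 for red cells also had a more negative genotype difference on the no-Cys diet, and their part was not tested.

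Within Cse-/- mice, the no-Cys diet was compared with the no-Trp diet. Here 2 of the 10 genes were lower, where 5.35% of all genes were. Srebf1 was at 240, 117 and 166 CPM on the no-Trp diet, above every no-Cys value, and the log2 difference was -1.38 (SE 0.29, adjusted p = 0.00541). Thrsp was at 271, 190 and 346 CPM on the no-Trp diet, also above every no-Cys value, and differed by -1.80 (SE 0.44, adjusted p = 0.0147). In all, 3 of the 10 genes and 9.83% of all genes were lower on the no-Cys diet without overlap. Pnpla3 (-1.49, adjusted p = 0.0561) and Scd1 (-1.35, adjusted p = 0.179) were not called. For Scd1 the 3 no-Trp livers spanned 132 to 1810 CPM, and av14, the lowest in Scd1, was the highest in Srebf1. Scd1 was at -0.45 without av15 (adjusted p = 0.706) and at -1.86 without av14 and av17 (adjusted p = 0.0458), where 3 of the 10 genes and 4.97% of all genes in either direction were called. Without these mice Srebf1 was at -1.08 (adjusted p = 0.0392), Thrsp at -1.80 (adjusted p = 0.0220) and Pnpla3 at -0.73 (adjusted p = 0.447). The count was 1 without av05 or without av16 and 5 without av15. In this comparison 3 of 5 hepatocyte markers, with sums of 60107 to 65583 CPM on the no-Trp diet, and 3 of 5 red cell markers were also lower on the no-Cys diet. None of 6 adipocyte markers was called, although 5 were lower in value (median -2.40). The part of these markers was not tested.

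The inhibitor was examined next. In Cse-/- livers on the no-Trp diet, 3 genes were lower with BSO than without it, whereas 0.305% of all genes were. Scd1 was at 50.8, 273, 60.3 and 90.9 CPM with BSO (log2 difference -2.98, SE 0.66, adjusted p = 0.0341), and its range overlapped that without BSO. Thrsp was at 40.5, 125, 37.3 and 63.2 CPM with BSO, below every liver without it (-2.02, SE 0.44, adjusted p = 0.0341). Acacb was at 29.9, 48.8, 26.0 and 31.2 CPM with BSO, also below every liver without it (-1.17, SE 0.23, adjusted p = 0.0165). Acaca (-0.63, adjusted p = 0.0563), Elovl6 (-0.92, adjusted p = 0.128), Pnpla3 (-1.48, adjusted p = 0.128), Fasn (-0.59, adjusted p = 0.196) and Srebf1 (-0.64, adjusted p = 0.327) were not called.

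These BSO calls depended on single mice. Mouse av10 was the highest of the BSO group in Scd1, Thrsp, Acacb, Acaca and Elovl6, and without it 5 of the 10 genes were called. Without av09, av11 or av12 none was called, and without av15 or av16 there was 1. The share of all genes called in these fits is not given, so a change over all genes cannot be told apart. Scd1 was at -2.09 without av15 (adjusted p = 0.209) and at -3.49 without av14 and av17 (adjusted p = 0.00773), where 3 of the 10 genes and 0.62% of all genes in either direction were called. Pnpla3 was at -0.72 without av14 and av17 (adjusted p = 0.549). No hepatocyte, adipocyte or red cell marker was called between these groups. In value, 5 of 6 adipocyte markers (median -2.29) and 5 of 5 red cell markers (median -0.30) were lower with BSO, and their part was not tested.

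The no-Cys and no-Trp + BSO groups were then set against each other in Cse-/- mice. The carboxylases were higher on the no-Cys diet, 2 of the 10 genes, where 1.33% of all genes were higher. Acaca was at 43.4, 34.8, 37.1 and 36.1 CPM on the no-Cys diet and at 22.0, 29.5, 20.7 and 23.3 CPM with no-Trp + BSO (log2 difference 0.67, SE 0.14, adjusted p = 0.0209). Acacb differed by 0.84 (SE 0.22, adjusted p = 0.0402), with the groups overlapping only through av10 and av06. Srebf1 was lower (-0.74, adjusted p = 0.128) and Scd1 higher (1.64, adjusted p = 0.138) on the no-Cys diet, neither of which was called. Without av08, Srebf1 was called (-1.06, adjusted p = 0.0170) among 3 genes, and without av10, Scd1 was (2.46, adjusted p = 0.0439) among 4. In this comparison 3 of 5 hepatocyte markers and 1 of 4 bile duct markers were lower on the no-Cys diet, and their part was not tested. None of the 10 genes was called without av05, av06, av07, av09, av11 or av12.

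**Figure D3:**
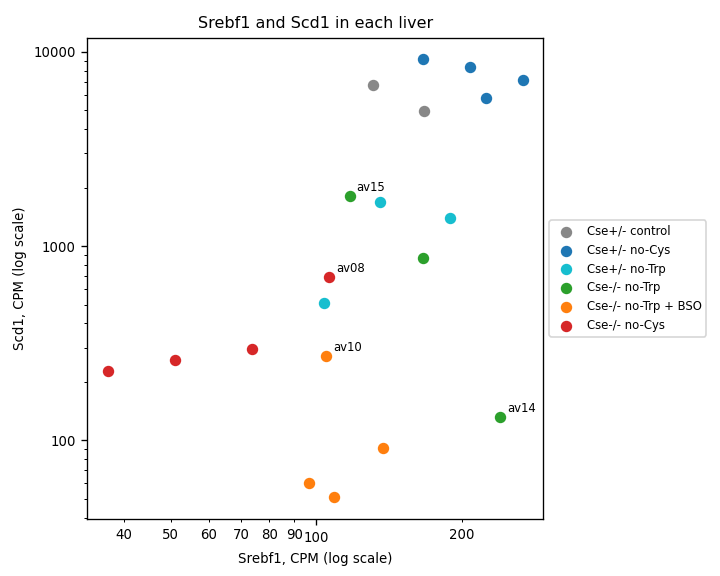
Scd1 against Srebf1 in each of the 20 livers, both in CPM on log axes, coloured by group, with av08, av10, av14 and av15 marked. The lowest Srebf1 values, 37.1 to 73.7 CPM, belong to 3 of the 4 Cse-/- no-Cys livers, the lowest Scd1 values, 50.8 to 90.9 CPM, belong to 3 of the 4 no-Trp + BSO livers, and av14 combines the second highest Srebf1 with a low Scd1.

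In the plot of Scd1 against Srebf1, the 4 Cse-/- no-Cys livers had the same order in both genes, whereas the 3 Cse-/- no-Trp livers had the reverse order. In the latter group, av15 had the lowest Srebf1 (117 CPM), Mlxipl (233 CPM) and Fasn (70.7 CPM) of the 3 mice but the highest Scd1 (1810 CPM) and Acacb (110 CPM). Scd1 means ran from 7638 ± 1454 CPM (SD, n = 4) in Cse+/- no-Cys and 5872 ± 1241 CPM (n = 2) in Cse+/- control livers to 1197 ± 612 CPM (n = 3) in Cse+/- no-Trp and 938 ± 841 CPM (n = 3) in Cse-/- no-Trp livers. Below these came Cse-/- no-Cys livers at 369 ± 218 CPM (n = 4) and Cse-/- no-Trp + BSO livers at 119 ± 104 CPM (n = 4). No pair of neighbours in this order was called. Scd1 was at 508 to 1680 CPM in Cse+/- no-Trp and at 4995 and 6750 CPM in control livers (log2 difference -2.29, SE 0.75, adjusted p = 0.328). These ranges did not overlap, but with so few livers 14.6% of all genes were likewise lower without overlap.

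In Cse+/- mice the diets differed among themselves. Between the no-Cys and no-Trp diets, 3 genes were higher on no-Cys (4.63% of all genes), with Scd1 at a log2 difference of 2.67 (SE 0.70, adjusted p = 0.0242), Fasn at 1.09 (SE 0.22, adjusted p = 0.00541) and Acly at 0.60 (SE 0.17, adjusted p = 0.0368). The count was 1 without av17 or av20, and Acly was not called without av14 and av17 (adjusted p = 0.0996). Of the markers, 1 of 3 for endothelium was lower on no-Cys, and none of 6 for adipocytes was called, although all 6 were lower in value (median -2.12). Their part was not tested. Against the control diet, where 1 of 4 bile duct markers was lower on no-Cys, Fasn alone was higher on no-Cys (0.989% of all genes), and Acaca was close (0.66, adjusted p = 0.0582). Fasn was at 87.0 and 77.4 CPM in the control livers, below all 4 no-Cys livers. Such separation held for 25.6% of all genes in either direction. None of the 10 was called between no-Trp and control (0.0474% of all genes) by edgeR or by DESeq2, and 1, Scd1, had an unadjusted p under 0.05 in edgeR.

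Against the Cse+/- control livers, which were only 2, Cse-/- no-Cys livers were lower in 3 genes (9.22% of all genes). Thrsp, at 437 and 449 CPM in the controls, differed by -2.52 (SE 0.48, adjusted p = 0.00142), Scd1 by -3.99 (SE 0.71, adjusted p = 8.16e-04) and Srebf1 by -1.16 (SE 0.32, adjusted p = 0.0152). With only these 2 groups in the fit, Srebf1 was not called (adjusted p = 0.0509) and Acaca was called higher (0.47, adjusted p = 0.0268), and Srebf1 was not called without av21 either (adjusted p = 0.145). Thrsp was thus high in the control livers already, unlike Fasn. In the same comparison 4 of 5 hepatocyte, 5 of 5 red cell, 3 of 4 bile duct and 1 of 3 endothelial markers were lower, and their part was not tested. Several of these comparisons share livers and are not independent of each other.

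**Figure D4:**
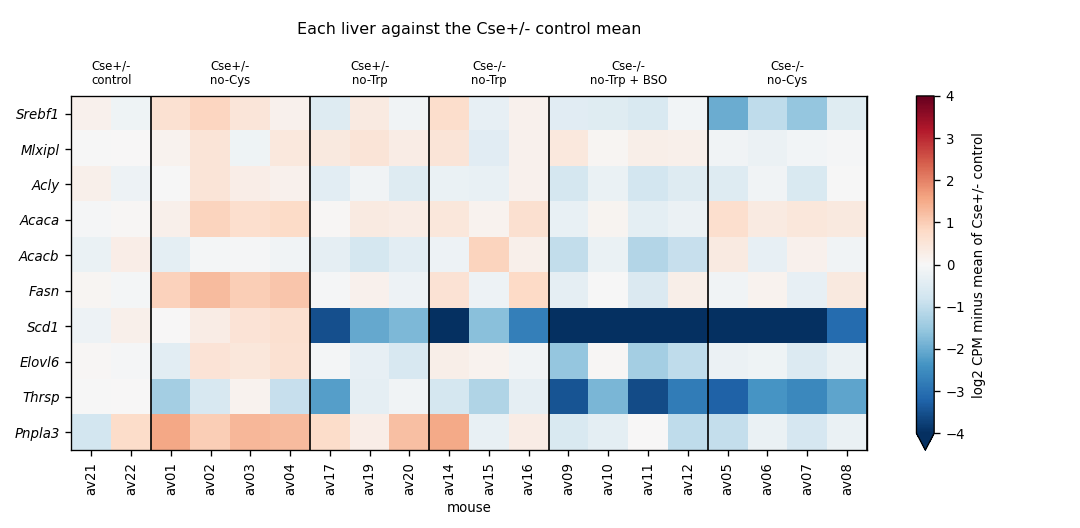
Log2 CPM of each lipogenic gene in each of the 20 livers minus the mean of the 2 Cse+/- control livers, as a colour from blue (lower) to red (higher), with groups separated by lines and values beyond -4 drawn in the darkest blue. Scd1 and Thrsp are blue across the Cse-/- no-Cys and no-Trp + BSO livers, Fasn is red across the Cse+/- no-Cys livers, and Mlxipl stays pale.

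The map of the livers against the control mean shows how unevenly the genes moved. Over the 20 livers, the Pearson correlation of a gene's log2 level with the mean scaled level of the other 9 was 0.833 for Acly, 0.806 for Fasn, 0.781 for Elovl6, 0.780 for Thrsp and 0.772 for Scd1. It was lower for Pnpla3 (0.662), Acaca (0.645) and Srebf1 (0.640), and lowest for Acacb (0.266) and Mlxipl (0.0736). These values describe 20 livers that share groups and carry no p. The genes outside the set most like its mean scaled level were Idi1 (r = 0.904), Gm3571 (0.901), Cyp51 (0.895), Sqle (0.891), Fads1 (0.887), Fcgr2b (0.886), Gatm (0.883) and Rasgrp3 (0.863), all over 20 livers. Idi1, Cyp51 and Sqle encode enzymes of cholesterol synthesis, and Fads1 encodes a fatty acid desaturase.

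Genes around the lipogenic set were read from lists of 47 genes, of which 46 were tested. On the no-Cys diet, 11 of these 46 were lower and 6 higher in Cse-/- than in Cse+/- livers, compared with 12.2% and 11.6% of all genes, and their median log2 difference was -0.09. Of the 6 genes that process SREBPs, 2 were lower. These were Insig1, which holds SREBPs in the endoplasmic reticulum and is itself an SREBP target (-1.20, SE 0.24, adjusted p = 0.00131), and Srebf2, the regulator of cholesterol synthesis (-0.57, SE 0.15, adjusted p = 0.00793). Insig1 was at 201 to 232 CPM in Cse+/- and 57.5 to 125 CPM in Cse-/- livers, which do not overlap. Scap, Insig2 and the proteases Mbtps1 and Mbtps2 were not called.

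The other enzymes of elongation and desaturation were lower in 4 of 6 cases, namely Elovl5 (-1.28, adjusted p = 7.35e-04), Elovl3 (-1.24, adjusted p = 0.0192), Fads1 (-0.85, adjusted p = 3.40e-04) and Hsd17b12 (-0.54, adjusted p = 0.00126). Of the 7 genes that supply carbon or NADPH, 3 were lower, namely Acss2, which makes acetyl-CoA from acetate (-0.89, adjusted p = 3.04e-05), the citrate carrier Slc25a1 (-0.57, adjusted p = 4.67e-04) and Idh1 (-0.52, adjusted p = 0.00286), while Pgd of the pentose phosphate pathway was higher (0.49, adjusted p = 0.0235). Of the 9 LXR receptors and targets, which include an activator of Srebf1 transcription, none was called lower, although 3 were lower in value (lowest -0.14). The sterol exporters Abcg8 (0.69, adjusted p = 0.00151) and Abcg5 (0.39, adjusted p = 0.0287) were higher, and Nr1h3, which encodes LXRα, differed by 0.10 (adjusted p = 0.414).

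Of the 9 genes listed as the partner or sugar-responsive targets of ChREBP, 7 were not called. Khk, the first enzyme of fructose breakdown, was lower (-0.93, adjusted p = 2.17e-04), and Tkfc, which acts later in it, was higher (0.58, adjusted p = 0.00694). Pklr, a classical ChREBP target, was at -0.48 (adjusted p = 0.159). Of 5 tested genes of glycerolipid synthesis only Dgat1 was called, higher at 0.39 (adjusted p = 0.00306). Mid1ip1, the partner of acetyl-CoA carboxylase that resembles Spot 14, was lower (-0.86, adjusted p = 0.0392), and Trib3, a target of the integrated stress response, was higher (1.63, adjusted p = 1.80e-05).

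**Figure D5:**
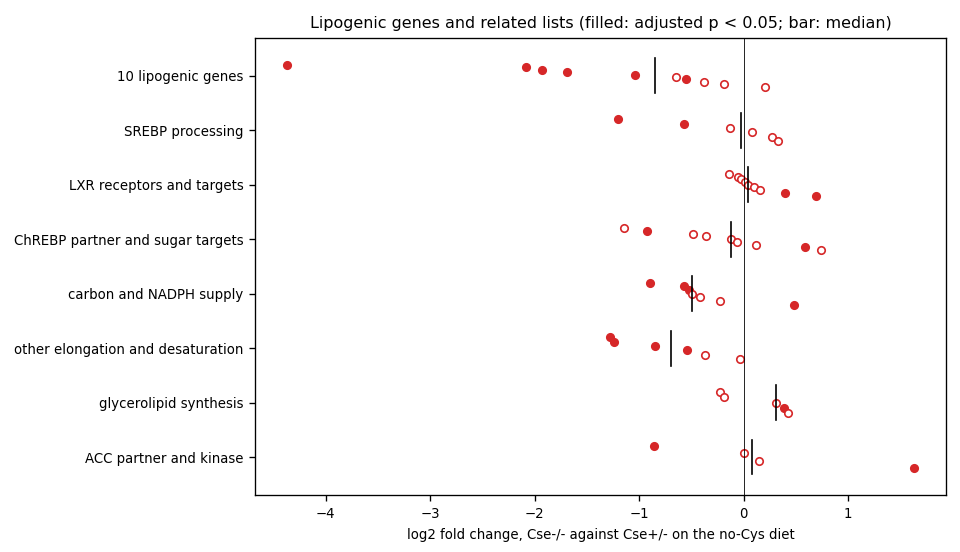
Log2 fold change in Cse-/- against Cse+/- livers on the no-Cys diet for the 10 lipogenic genes and for 7 lists of related genes, 1 point per gene, filled where the adjusted p was under 0.05, with a bar at each list's median. The lipogenic genes reach from -4.37 to 0.21, the other elongation and desaturation genes lie at or below -0.04, and the LXR list is centred near 0.

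The genotype difference was more negative on the no-Cys than on the no-Trp diet for 10 of these 46 genes and more positive for none (2.69% of all genes were called in the former direction). Insig1 had the greatest such difference, at -2.05 (adjusted p = 0.00379), followed by Elovl5 at -1.61 (adjusted p = 0.0154). BSO added to the no-Trp diet in Cse-/- mice lowered 1 of the 46 (0.305% of all genes), Fads1, at -0.77 on the log2 scale (adjusted p = 0.0181).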

How the data were processed

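Liver poly(A) RNA was sequenced, and the authors deposited a table of raw read counts per gene, made with HISAT2 2.1.0 and HTSeq 0.11.0 on GRCm38 according to the submitters' processing notes. The 20 columns used were tied to groups through mouse numbers in the study's list of mice. 1 further column, whose number has no condition there, was not used. No source used here gives the strand setting of the counting. Library totals were 11785740 to 57986121 counts (median 15252745).

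Counts were analysed with edgeR 4.0.16 in R 4.3.3 (TMM factors, filterByExpr with a minimum count of 10, quasi-likelihood test, 6 groups in 1 fit, Benjamini-Hochberg adjustment over 14759 genes, two-sided), after a test on simulated data. Standard errors were derived from the fold change and the F statistic. Alternatives were DESeq2 1.42.0, other size factors, other filters, only the groups compared, and leaving out each mouse. A fit without av14 and av17 was added after seeing the data. The members and gene lists were chosen with earlier results of these data known. Named genes were all 10 members and, per list, up to 3 called genes of greatest change and others needed to describe the list. Gene positions and exon lengths came from GENCODE vM21, and promoters from RefSeq. Marker sums were taken over lists for hepatocytes, adipocytes, macrophages, stellate cells, endothelium, bile duct, red cells and pancreas. Of the related lists, 1 gene was left out of all counts and is not reported here.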

Additional observations from a re-analysis of the deposited data

Results flagged for a closer look

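Mouse av08 had Scd1 at 693.706 CPM, far above the other 3 Cse-/- no-Cys livers by Dixon's test (ratio 0.856). Of 30 such tests over the 10 genes and the 3 groups of 4 livers, this was the only one past the critical value, and chance passes about 1 in 20. The same liver had the highest hepatocyte marker sum of its group, at 61676 CPM, and the highest Srebf1, at 106 CPM. Whether these are related was not tested.

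The genotype difference depended on the diet, by the interaction term in edgeR, for Srebf1 (-1.98), Fasn (-1.51) and Scd1 (-4.02), each more negative on the no-Cys than on the no-Trp diet (log2 scale, adjusted p = 0.00966, 0.00742 and 0.0186). The Scd1 call was lost without av15 or without av17, and the Srebf1 call without av14 and av17 together.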

How the results depend on the processing

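The 6 genes called lower in Cse-/- no-Cys against Cse+/- no-Cys livers stayed between 5 and 7 under the alternatives, with 5 at a mean CPM of at least 1, where Pnpla3 was not tested. Without a filter, counts were 4 for Cse-/- no-Cys against no-Trp, 5 for BSO added to no-Trp and 6 for the interaction, all lower. No-Cys against no-Trp + BSO gave 4, of which 3 were higher and 1 lower. The genotypes on no-Trp gave 1, Cse+/- no-Cys against control gave 2, and Cse+/- no-Trp against control gave 1. With only the groups compared, Cse-/- no-Cys against no-Trp gave 1 and BSO gave 1. DESeq2 called 1 for the genotypes on no-Trp and 2 for Cse+/- no-Cys against control. Without av14 and av17, the genotypes on no-Trp gave 1, and Mlxipl's interaction turned from -0.10 to 0.14. The causes of these changes were not tested.

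With each mouse left out in turn, counts ranged from 5 to 7 for the genotypes on no-Cys, 1 to 5 for Cse-/- no-Cys against no-Trp, 0 to 5 for BSO, 0 to 4 for no-Cys against no-Trp + BSO, 0 to 1 for the genotypes on no-Trp, 1 to 4 for Cse+/- no-Cys against no-Trp, 0 to 2 for Cse+/- no-Cys against control, 2 to 3 for Cse-/- no-Cys against Cse+/- control, and 2 to 4 for the interaction. Scd1 between genotypes on no-Trp ranged from -1.27 to 0.15, and the Mlxipl interaction from -0.33 to 0.14, both changing sign without av14. A group left with 1 liver, in the control, was assumed to vary like the others. Pnpla3, at 4 to 41 counts a library, is limited by depth. No paired analysis was possible because the columns carry mouse numbers and no replicate number of the labels.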
